A study of Mus musculus with 55 samples.

Results

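The endothelial genes described here are 10 markers of the blood vessel lining of pancreatic islets, followed across every bulk RNA-seq library of the series. They are Pecam1, Plvap, Kdr, Cdh5, Flt1, Esam, Tie1, Tek, Egfl7 and Emcn, taken by name as a fixed list with no threshold on a measured value, though the list was drawn up with earlier results of these data known. These are 10 of 47937 genes in the count table. The table holds 16 libraries of whole isolated islets from C57B6/J mice in 6 groups. Wild-type (WT) islets were sampled at 8 weeks (n = 3) and 25 weeks (n = 3), islets with heterozygous Eed deletion (HET) at 8 weeks (n = 3) and 25 weeks (n = 2), and islets with homozygous Eed deletion, written Eed -/- in the labels and βEedKO here, at 8 weeks (n = 3) and 25 weeks (n = 2). Eed is a core subunit of Polycomb repressive complex 2, which deposits H3K27me3. Per the study's methods the floxed allele was removed by Cre under the rat insulin promoter, so the deletion was directed to β cells, the libraries came from islets of male mice, and the βEedKO libraries at 25 weeks were pools of several animals with diabetes.

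Islets are among the most densely vascularised tissues, and their capillaries are lined by fenestrated endothelium that carries hormone into the blood. β cells secrete vascular endothelial growth factor A (VEGF-A), which is read on the endothelium by the receptor VEGFR2, encoded by Kdr, while VEGFR1, encoded by Flt1, binds the same ligand strongly and limits its signal. The angiopoietin receptor Tie2 is encoded by Tek and its partner Tie1 by Tie1. Pecam1, Cdh5 and Esam encode adhesion molecules of the junctions between endothelial cells, with Cdh5 encoding VE-cadherin. Plvap encodes the protein of the diaphragms that span fenestrae, Emcn encodes the surface sialomucin endomucin, and Egfl7 encodes a secreted factor that endothelial cells deposit in their matrix.

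The chromatin of the start sites was described in a deposited segmentation of the autosomes of wild-type islets into 24 states, learned from histone marks, RNA polymerase II and DNA methylation. "Bivalent" here means states in which the active mark H3K4me3 and the Polycomb mark H3K27me3 occur together. The histone marks were read in whole islets. Whether both marks lay in the same cells, or in the endothelial cells among them, cannot be told from these states. In that segmentation the most 5′ start sites of 6 of the 10 genes lay in bivalent states, against 20.2% of 25640 genes with a state. Plvap, Cdh5 and Flt1 had the bivalent state rich in H3K27me3, Kdr the bivalent state rich in H3K4me3, and Esam and Tek the remaining bivalent state. Tie1, Egfl7 and Emcn started in Polycomb-repressed states, held by 20.4% of genes. Pecam1 started in a quiescent state, held by 3.30% of genes, although its other annotated protein-coding starts, inside the gene, lay in a Polycomb state. None of the 10 most 5′ starts lay in an active start or flanking state, which held 39.5% of genes. Egfl7 was mixed, since 4 of its internal starts, those between 26586630 and 26586689 of chromosome 2, lay in an active start state.

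**Figure D1:**
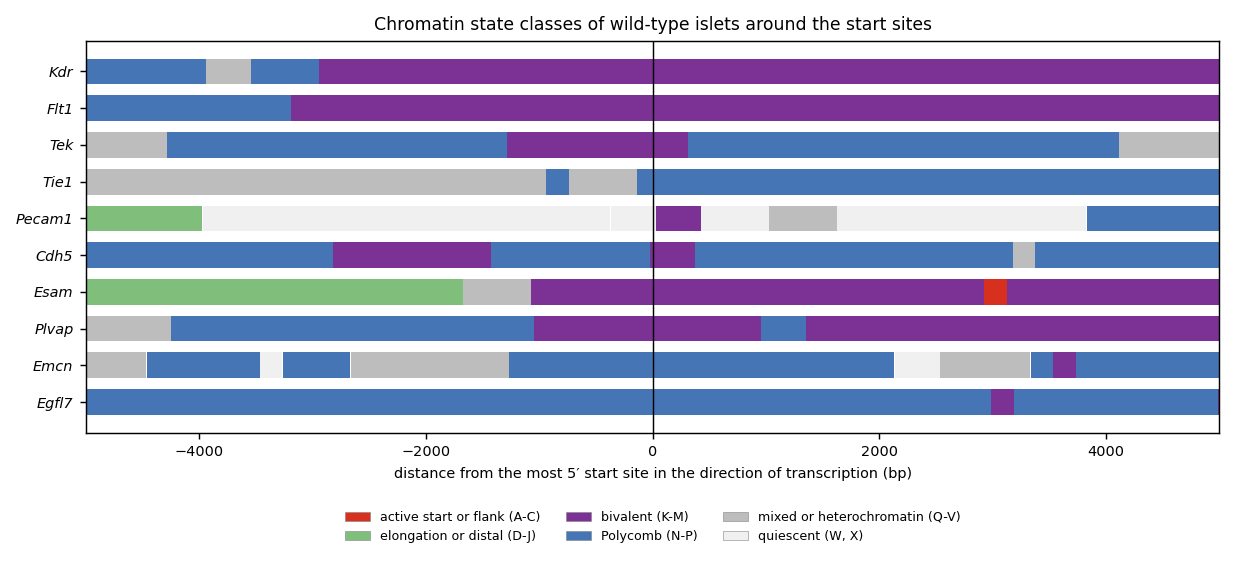
Chromatin state classes of wild-type islets within 5 kb on each side of the most 5′ annotated start site of each endothelial gene. The horizontal axis is the distance from that start in bp in the direction of transcription, each row is 1 gene and colours mark the state class. At position 0, 6 rows are bivalent, 3 are Polycomb-repressed and Pecam1 is quiescent.

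On GRCm38 the genes lie on 7 chromosomes. Kdr occupies chr5:75932827-75978458 and Flt1 chr5:147561604-147726011, both on the minus strand. Tek occupies chr4:94739289-94874976 on the plus strand and Tie1 chr4:118471191-118490061 on the minus strand. Plvap lies at chr8:71497765-71511752 on the minus strand and Cdh5 at chr8:104101625-104144511 on the plus strand. Pecam1 lies at chr11:106654217-106750628 on the minus strand, Esam at chr9:37528078-37538319 on the plus strand, Emcn at chr3:137341067-137432185 on the plus strand and Egfl7 at chr2:26580014-26593120 on the plus strand. Exons of Egfl7 overlap other annotated genes, with 264 bp (7.37% of its exonic length) shared with Gm20532 on the same strand and 64 bp shared with Agpat2 on the opposite strand. Reads there cannot be assigned with certainty because the counting strand is not given in the sources used here. Plvap and Cdh5 overlap no exon of another gene.

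Promoter sequences were found in the RefSeq table (GRCm38.p6) for 6 of the 10 genes, namely Kdr, Flt1, Tek, Tie1, Egfl7 and Emcn. The 250 bases upstream of the RefSeq start are printed for 2 bivalent VEGF receptor genes, for the bivalent Tek and for the Polycomb-repressed Emcn, because they show how differently composed the sequences under these states are. Each runs 5′ to 3′ in the direction of transcription, and capitals mark ACAGGAA, one form of the core bound by ETS factors, on either strand (TTCCTGT where it lies on the reverse strand). The positions are chr5:147726012-147726261 on the minus strand for Flt1, chr5:75978456-75978705 on the minus strand for Kdr, chr4:94739039-94739288 on the plus strand for Tek and chr3:137340828-137341077 on the plus strand for Emcn.
Flt1: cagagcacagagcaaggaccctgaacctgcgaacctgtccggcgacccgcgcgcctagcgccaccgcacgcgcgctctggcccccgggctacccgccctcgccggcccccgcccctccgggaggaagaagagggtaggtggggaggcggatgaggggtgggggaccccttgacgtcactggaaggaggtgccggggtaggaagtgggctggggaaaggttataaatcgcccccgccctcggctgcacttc
Kdr: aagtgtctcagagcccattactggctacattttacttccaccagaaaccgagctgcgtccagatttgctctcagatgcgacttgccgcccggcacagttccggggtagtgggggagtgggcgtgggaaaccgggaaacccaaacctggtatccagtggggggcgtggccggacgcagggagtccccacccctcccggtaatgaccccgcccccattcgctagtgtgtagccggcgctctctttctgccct
Tek: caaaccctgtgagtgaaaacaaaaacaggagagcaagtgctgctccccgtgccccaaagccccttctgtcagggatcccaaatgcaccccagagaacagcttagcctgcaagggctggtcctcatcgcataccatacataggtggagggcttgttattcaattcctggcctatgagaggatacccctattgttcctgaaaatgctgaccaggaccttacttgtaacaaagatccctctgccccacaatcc
Emcn: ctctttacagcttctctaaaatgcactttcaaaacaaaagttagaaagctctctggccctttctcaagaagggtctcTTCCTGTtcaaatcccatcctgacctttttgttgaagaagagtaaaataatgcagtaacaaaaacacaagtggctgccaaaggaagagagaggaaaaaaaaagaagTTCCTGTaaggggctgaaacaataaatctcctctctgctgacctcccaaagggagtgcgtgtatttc

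Over the 300 bases that add the first 50 of the transcript, the Flt1 promoter had a GC content of 70.7% and an observed over expected CpG ratio of 0.780, and Kdr had 60.7% and 0.689. Tek had 52.0% and 0.149, and Emcn 41.0% and 0.159. The medians over 27025 promoters, 1 per gene, were 52.7% and 0.389, so both VEGF receptor genes lay above both medians while Tek and Emcn lay below both. ACAGGAA occurred at 173 and 67 bases upstream of the Emcn start, once in the Tie1 promoter and once in each of 2 of the 3 Egfl7 promoters. It was in none of those of Kdr, Flt1 and Tek, and 8.48% of all promoters hold it on 1 strand or the other. A second ETS form, CCGGAAG, was in none of the 6 genes' promoters and in 9.14% of all. These are matches of letters, not bound sites.

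All 10 genes were detected in all 16 libraries, with 37 to 2663 reads per gene and library. Library totals ranged from 4645393 to 22925359 counted reads. Eed itself was at 23.9 to 33.1 CPM (counts relative to the library total, scaled by TMM) in WT and 13.4 to 14.9 in βEedKO islets at 8 weeks, and at 19.3 to 28.3 and 14.2 to 15.6 at 25 weeks, with HET libraries at 16.3 to 20.5. These whole-gene counts of whole islets do not separate the deleted exons or the cells that keep the gene. Libraries also differed apart from genotype. The summed CPM of 7 immediate-early genes such as Fos split the libraries, at the widest gap, into 7 low ones (647 to 2287 CPM) and 9 high ones (5571 to 12832 CPM). The low ones were WT replicates 3 and 4 and βEedKO replicates 4 and 5 at 8 weeks, WT replicate 2 at 25 weeks and both βEedKO libraries at 25 weeks, while all HET libraries were high. The 4 low libraries at 8 weeks had summed interferon-response genes at 3266 to 4710 CPM, against 61.9 to 148 CPM elsewhere. Since neither βEedKO library at 25 weeks was a high one, genotype and this split are partly confounded at that age, and values with a term for it are given for each of the 10 genes at 25 weeks. Heterozygous replicate 2 at 8 weeks stood apart in the genes studied here, with a summed level of 557 CPM against 385 and 458 CPM in its group, and in fibroblast genes, at 203 CPM.

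Compared per kilobase of exon, the order of the genes was led by Plvap. In 25-week WT islets its level was 51.3 ± 0.79 CPM per kb (SD, n = 3), followed by Kdr at 12.7 ± 2.5, Esam at 7.58 ± 0.94, Flt1 at 7.07 ± 1.5, Emcn at 6.51 ± 0.73, Pecam1 at 6.02 ± 0.41, Tie1 at 5.02 ± 0.24, Cdh5 at 4.58 ± 0.78, Egfl7 at 4.52 ± 1.2 and Tek at 2.83 ± 0.64. Plvap and Kdr were each clear of the next gene, and Tek was clear of the gene above it. From Esam to Pecam1 neighbours overlapped in range, as they did from Tie1 to Egfl7. In 25-week βEedKO islets Plvap again led, at 61.4 ± 12 CPM per kb (n = 2), Esam was in the second place at 13.05 ± 2.5, and Kdr was in the fifth place at 8.43 ± 1.5, with the ranges of neighbours from Esam to Cdh5 overlapping. Plvap was the highest and Tek the lowest in each of these groups and in both 8-week groups.

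At 25 weeks, the comparison of βEedKO with WT asks whether vessel genes moved in diabetic islets whose β cells had lost Eed. No gene of the 10 was called different (edgeR quasi-likelihood test, Benjamini-Hochberg adjusted p under 0.05), while 6.6% of 18685 genes tested were called, 4.58% higher and 2.02% lower. By unadjusted p under 0.05 the count was 3, a share near the 20.3% of all genes, and DESeq2 called 1, Pecam1. The fitted differences of the 10 had no common sign. Those of 7 genes were above 0 and those of 3 below, with a median log2 fold change of 0.20 against 0.03 over all genes. Without βEedKO replicate 2 that median was -0.04, and without replicate 3 it was 0.40. In bulk islets, fewer endothelial cells and less RNA per cell cannot be told apart.

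Kdr, the main signalling receptor for VEGF-A, was at 89.0, 130.5 and 125 CPM in the WT libraries and at 85.4 and 66.8 CPM in the βEedKO libraries at 25 weeks. Both knockout values lay below every WT value, and both HET values, 141 and 155 CPM, lay above every WT value. The log2 fold change of βEedKO against WT was -0.65 ± 0.37 (SE; edgeR adjusted p = 0.364, 0.164 to 0.742 over the alternatives). The lowest WT value belonged to the 1 WT library with low immediate-early genes, and Kdr ran low in such libraries across the series, at 43.4 to 89.0 CPM (median 66.8, 7 libraries) against 77.8 to 155 CPM (median 107, 9 libraries) in the others. Every HET library was among the high ones and all but 1 βEedKO library among the low ones, so these classes differ in genotype too. With a term for that split the difference in Kdr was -0.21. Among the low libraries alone, with 1 WT library at 25 weeks, it was -0.27. Genotype and the split cannot be fully told apart here.

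Flt1, the decoy receptor of the same ligand, was at 72.2, 109.6 and 105 CPM in WT and at 81.6 and 76.5 CPM in βEedKO islets at 25 weeks. These ranges overlapped, and the difference was -0.33 ± 0.24 (edgeR adjusted p = 0.510). With the immediate-early term it was -0.15, and among the low libraries alone its sign turned, to 0.083. HET libraries at 25 weeks gave 116.9 and 116.8 CPM, above all 3 WT and both knockout values.

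For both Tie receptors the genotypes overlapped. Tek was at 16.8, 11.8 and 11.4 CPM in WT and at 18.0 and 13.5 CPM in βEedKO islets, a log2 difference of 0.19 ± 0.39 (adjusted p = 0.841). Tie1 was at 23.8, 24.2 and 26.0 CPM in WT and at 26.9 and 25.2 CPM in βEedKO islets, a log2 difference of 0.03 ± 0.21 (adjusted p = 0.965). Both differences turned sign when knockout replicate 2 was left out, to -0.047 for Tek and -0.044 for Tie1. With the immediate-early term they were 0.32 for Tek and 0.15 for Tie1, and among the low libraries alone Tek turned sign, to -0.14.

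Among the junction genes, Pecam1 came nearest to a call. Its levels were 39.7, 34.7 and 38.1 CPM in WT and 74.6 and 52.8 CPM in βEedKO islets at 25 weeks, with HET islets at 47.4 and 35.2 CPM. Both knockout libraries exceeded every WT and HET library of that age, and the difference from WT was 0.71 ± 0.21 on the log2 scale (edgeR adjusted p = 0.0679). DESeq2 gave 0.73 with an adjusted p of 0.0219, the term for immediate-early genes 0.74, and the fit without knockout replicate 2 gave 0.42 (adjusted p from 0.022 to 0.472 over the alternatives).

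Esam was at 24.9, 19.9 and 20.4 CPM in WT and at 42.5 and 32.3 CPM in βEedKO islets, with no overlap (0.73 ± 0.29, adjusted p = 0.185). Cdh5 was at 15.5, 21.0 and 21.3 CPM in WT and at 29.8 and 33.2 CPM in βEedKO islets, also with no overlap (0.65 ± 0.48, adjusted p = 0.505). Cdh5 had the highest coefficient of variation of the 10 genes within each group at 8 weeks, at 45.7% in WT, 85.4% in HET and 47.8% in βEedKO islets, and the fit shares 1 estimate of the spread per gene over its groups. With the immediate-early term, fitted over both ages, the Cdh5 difference was -0.02, and for Esam it was 0.93. For Cdh5 the low libraries ran higher at 8 weeks in both genotypes. At 25 weeks the low WT library had the lowest WT value, 15.5 CPM, and both βEedKO libraries, also low ones, lay above it.

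Of the remaining genes, Egfl7 had the largest fitted change of the 10. It was at 20.9, 14.4 and 13.2 CPM in WT and at 41.5 and 21.8 CPM in βEedKO islets, so the knockout libraries lay above the WT range but far from each other (0.93 ± 0.33, adjusted p = 0.140). With WT and HET libraries pooled as the control, Egfl7 passed the threshold at an adjusted p of 0.0448. That setting called 2649 genes over all, against 1234 as reported. Without knockout replicate 2 its difference was 0.36, and with the immediate-early term it was 0.86.

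Plvap was at 103, 100.2 and 102 CPM in WT and at 139 and 105 CPM in βEedKO islets, a difference of 0.21 ± 0.23 (adjusted p = 0.686). Without replicate 2 the sign turned, to -0.036, and with the immediate-early term the difference was 0.30. Emcn was at 39.5, 34.5 and 31.6 CPM in WT and at 27.6 and 28.9 CPM in βEedKO islets (-0.37 ± 0.19, adjusted p = 0.318), below every WT and HET library of that age, and -0.42 with the immediate-early term. In all, both βEedKO libraries lay above every WT library for 5 of the 10 genes (24.6% of 18828 genes did so) and below for 2 (15.9% did so).

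**Figure D2:**
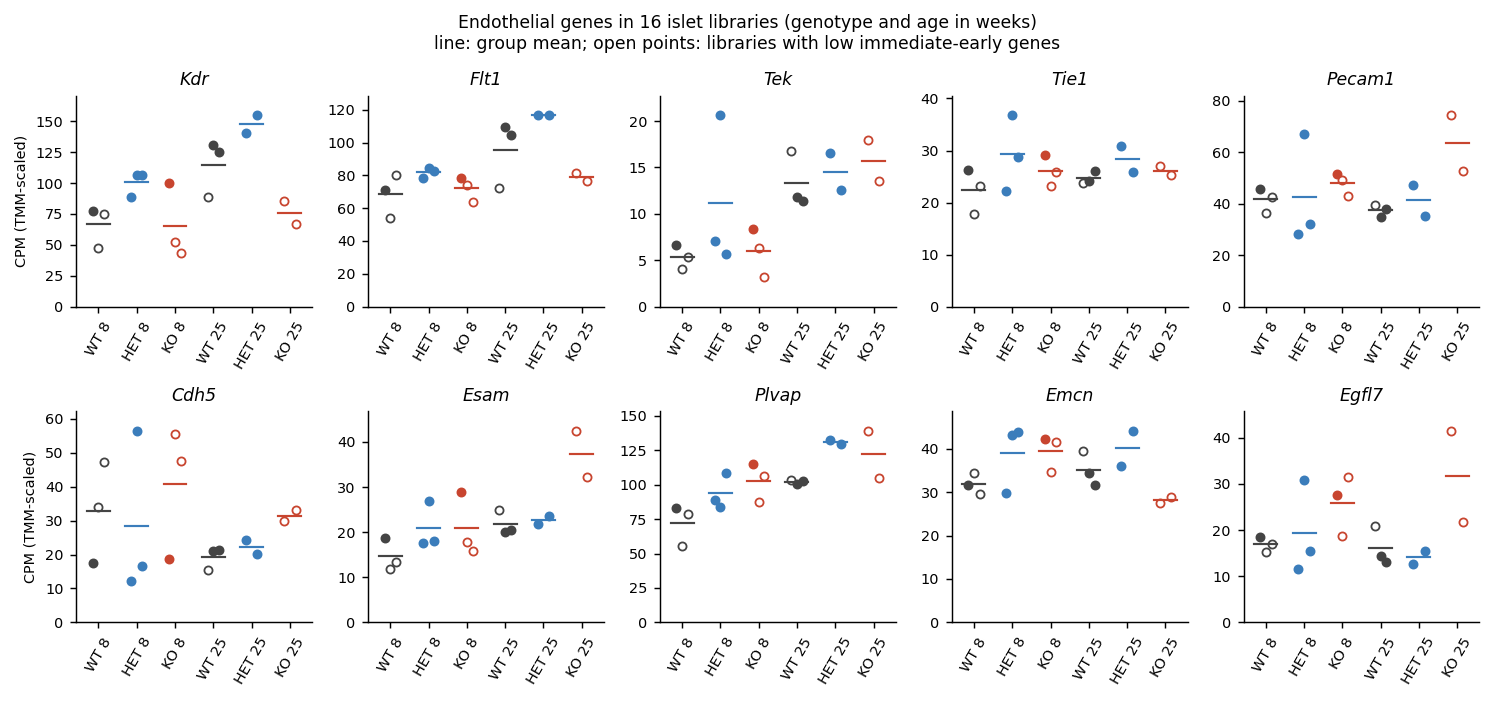
Level of each endothelial gene in CPM scaled by TMM (vertical axes, from 0) in every library, by genotype and age in weeks. Points are libraries, lines group means and open points the 7 libraries with low immediate-early genes. At 25 weeks the 2 βEedKO libraries lie above the 3 WT libraries for Pecam1, Plvap, Cdh5, Esam and Egfl7 and below them for Kdr and Emcn.

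At 8 weeks, an age at which none of the 8 β-cell genes followed was called, the same comparison gave smaller fitted differences for 8 of the 10. None of the 10 genes was called, against 0.434% of 18685 genes, with 1 gene at an unadjusted p under 0.05 (7.87% of all genes) and none called by DESeq2. The fitted differences of 9 genes were above 0, with a median of 0.26 against 0.004 over all genes. Scaling by library size alone raised that median to 0.43, and moved the median of all genes to 0.205 as well.

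Plvap was the gene with the lowest p. It was at 82.9, 55.7 and 78.9 CPM in WT and at 115, 87.1 and 107 CPM in βEedKO islets, with no overlap (0.51 ± 0.21, edgeR adjusted p = 0.575). Egfl7 was at 18.5, 15.2 and 16.9 CPM in WT and at 27.5, 18.7 and 31.6 CPM in βEedKO islets (0.62 ± 0.30, adjusted p = 0.670). Emcn was at 31.7, 34.4 and 29.6 CPM in WT and at 42.3, 34.7 and 41.5 CPM in βEedKO islets (0.31 ± 0.17, adjusted p = 0.746). These 3 genes were the ones whose knockout libraries all lay above the WT libraries, as 6.49% of 18828 genes did.

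Kdr overlapped widely between the genotypes at 8 weeks. It was at 77.8, 47.7 and 74.7 CPM in WT and at 100.3, 52.0 and 43.4 CPM in βEedKO islets (-0.04 ± 0.32, adjusted p = 0.993). The highest value in each genotype came from the replicate numbered 1, the 1 library of each genotype with high immediate-early and low interferon genes. Cdh5 went the other way, at 17.4 CPM in WT replicate 1 against 34.0 and 47.4 CPM in the other two, and at 18.7 CPM in βEedKO replicate 1 against 55.6 and 47.7 CPM. Its difference was 0.30 ± 0.43 (adjusted p = 0.944), and the part of the split in it was not tested.

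Flt1 at 8 weeks was at 71.1, 54.2 and 80.1 CPM in WT and at 78.6, 74.1 and 63.6 CPM in βEedKO islets (0.07 ± 0.22, adjusted p = 0.977). Tek was at 6.60, 4.01 and 5.30 CPM and at 8.35, 6.27 and 3.202 CPM (0.17 ± 0.35, adjusted p = 0.965). Tie1 was at 26.3, 17.8 and 23.1 CPM and at 29.1, 23.3 and 25.9 CPM (0.22 ± 0.19, adjusted p = 0.865). Genotypes overlapped for all 3 receptors, as they did for Pecam1 and Esam. Pecam1 was at 45.9, 36.5 and 42.7 CPM in WT and at 51.4, 49.4 and 43.2 CPM in βEedKO islets (0.20 ± 0.19, adjusted p = 0.888). Esam was at 18.8, 11.9 and 13.3 CPM and at 28.8, 17.8 and 15.9 CPM (0.51 ± 0.26, adjusted p = 0.709).

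The change of the knockout effect between the ages was tested as an interaction. No gene of the 10 was called, against 0.198% of genes, 1 had an unadjusted p under 0.05, as did 7.76% of all genes, and DESeq2 called none. That gene was Emcn, whose knockout effect was lower at 25 than at 8 weeks by 0.68 on the log2 scale (SE 0.26, edgeR adjusted p = 0.513), since every βEedKO library lay above WT at 8 weeks and below WT at 25 weeks. Each age taken alone, 6.49% and 15.9% of 18828 genes did so. For Kdr the corresponding value was -0.61 ± 0.48 (adjusted p = 0.881) and for Pecam1 0.51 ± 0.28 (adjusted p = 0.742).

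**Figure D3:**
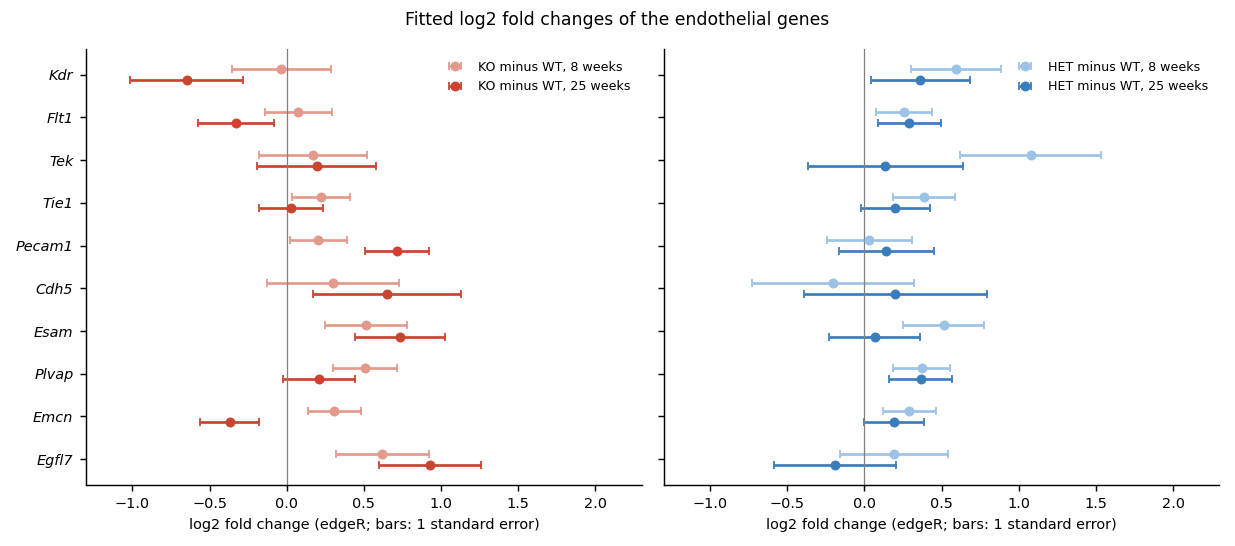
Fitted log2 fold changes (horizontal axis) of the 10 endothelial genes against WT, for βEedKO on the left and HET on the right, at 8 weeks (light) and 25 weeks (dark). Points are edgeR estimates and bars 1 standard error. At 25 weeks the βEedKO values run from -0.65 for Kdr to 0.93 for Egfl7, and no point passes the adjusted threshold.

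Each gene was also expressed relative to the mean log2 CPM of the 10 in its own library (pseudocount 0.5), which cancels library scaling. That mean itself was 5.17 ± 0.01 in WT and 5.42 ± 0.21 in βEedKO islets at 25 weeks (SD, n = 3 and 2), and 4.87 ± 0.18 and 5.13 ± 0.14 at 8 weeks. Because the levels are set against the mean of the same genes, some must lie lower where others lie higher, and the values at 25 weeks are given as a description. Kdr stood 1.30 to 1.87 above the mean in WT and 0.80 to 0.86 above it in βEedKO islets, a difference in group means of -0.84. Flt1 differed by -0.50, Emcn by -0.56 and Tie1 by -0.17, all without overlap. On the other side Pecam1 differed by 0.48, Cdh5 by 0.45 and Esam by 0.51 without overlap, and Egfl7 by 0.65 with overlap. Plvap and Tek each differed by -0.01.

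Thus 4 genes lay wholly below and 3 wholly above on this relative scale, where 26.8% and 16.6% of 18828 genes did when set against the same mean, and no test was made on it. At 8 weeks the ranges overlapped for all 10, with values from -0.36 for Kdr to 0.31 for Egfl7. The relative level of Kdr also differed between the classes of the immediate-early split, which differ in genotype too. It was 0.43 to 1.30 (median 0.86) in the 7 low libraries and 1.11 to 1.96 (median 1.73) in the 9 high ones. At 25 weeks the 1 low WT library had a Kdr value of 1.30, still above both knockout values.

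**Figure D4:**
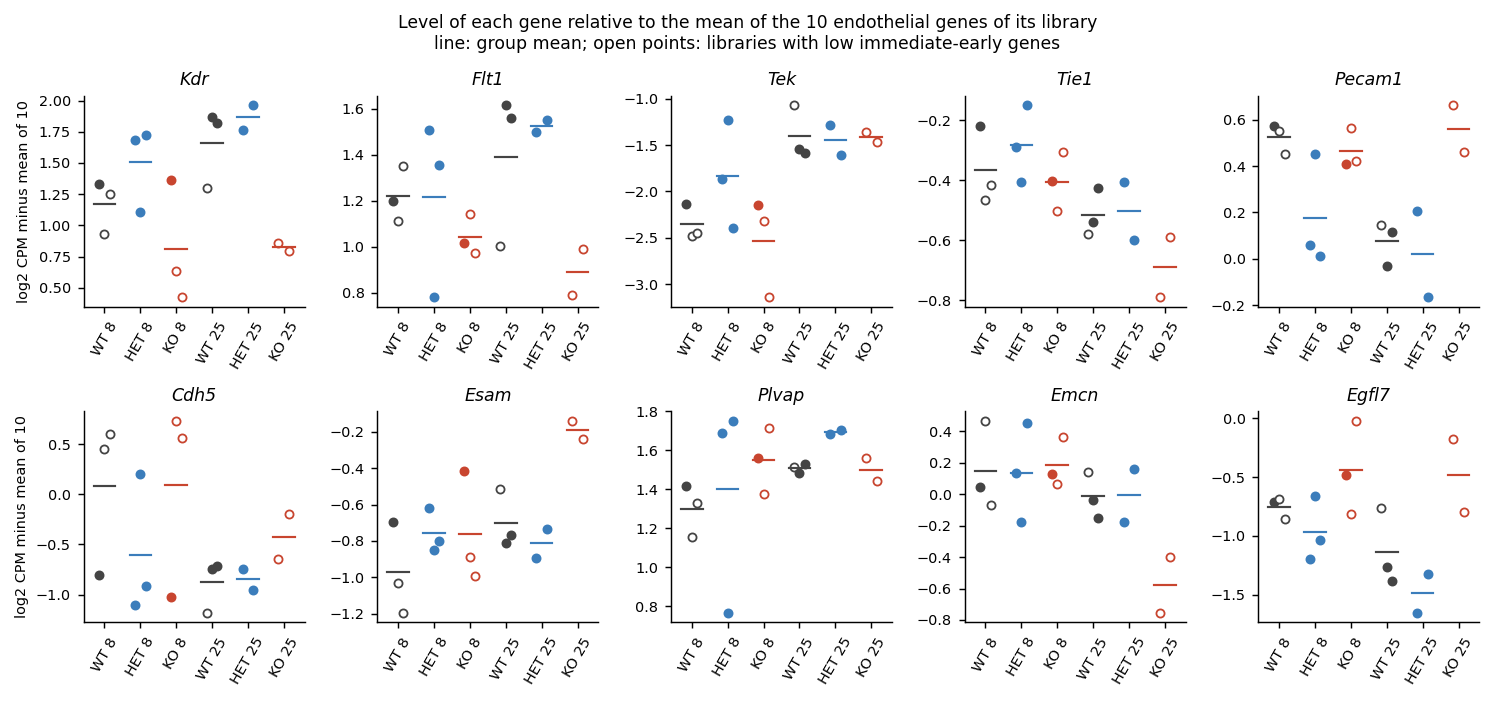
Log2 CPM of each endothelial gene minus the mean of the 10 genes in the same library (vertical axes), by genotype and age in weeks. Points are libraries, lines group means and open points libraries with low immediate-early genes. Kdr, Flt1, Tie1 and Emcn sit lower and Pecam1, Cdh5 and Esam higher in both βEedKO libraries at 25 weeks than in all 3 WT libraries.

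The heterozygous libraries form a second control. Against WT no gene of the 10 was called at either age, as for 0% of 18828 genes at 8 weeks and 0% at 25 weeks. Over all genes 2743 had an unadjusted p under 0.05 at 8 weeks and 210 at 25 weeks, and DESeq2 called 400 and 2, none of them among the 10. Of the 10 genes, 1 had an unadjusted p under 0.05 at 8 weeks and none did at 25 weeks. That was Tek, at 7.11, 20.7 and 5.65 CPM in HET islets (1.08 ± 0.46, adjusted p = 0.310), and without HET replicate 2 its difference was 0.27. Plvap and Kdr were above all WT libraries at 8 weeks (10.3% of genes), and Plvap, Kdr and Flt1 at 25 weeks (8.91% of genes).

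In HET islets at 8 weeks Kdr was at 88.6, 106 and 107 CPM, Flt1 at 78.3, 84.6 and 82.4 CPM and Tie1 at 22.2, 36.9 and 28.7 CPM. Pecam1 was at 28.4, 67.2 and 32.2 CPM, Cdh5 at 12.3, 56.6 and 16.7 CPM, Esam at 17.6, 27.0 and 18.1 CPM and Egfl7 at 11.6, 30.9 and 15.4 CPM. For these 4 genes, and for Tek and Tie1, replicate 2 was the highest of the 3. Plvap was at 88.7, 83.8 and 109 CPM and Emcn at 29.9, 43.3 and 43.8 CPM, with replicate 2 not the highest. At 25 weeks the 2 HET libraries gave 16.5 and 12.6 CPM for Tek, 30.8 and 25.9 CPM for Tie1, 24.2 and 20.2 CPM for Cdh5 and 21.8 and 23.6 CPM for Esam. Plvap was at 133 and 129.6 CPM there, Emcn at 36.1 and 44.2 CPM and Egfl7 at 12.7 and 15.5 CPM, and the 2 libraries lay close together for Plvap and Flt1 and furthest apart, in proportion, for Pecam1.

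Against HET, βEedKO islets had a lower Kdr at both ages, though short of a call. The difference at 25 weeks was -0.96 ± 0.36 (edgeR adjusted p = 0.118, 0.034 to 0.540 over the alternatives) and at 8 weeks -0.62 ± 0.29 (adjusted p = 0.201, 0.011 to 0.734). It passed the threshold at 25 weeks when that age was fitted alone (adjusted p = 0.0470). It also passed at both ages when βEedKO replicate 1 at 8 weeks was left out (0.0339 and 0.0113). Over all genes the fit of 25 weeks alone called 2218, against 1574 as reported. Without that replicate 2123 genes were called at 25 weeks, and 4014 at 8 weeks against 892 as reported. Since every HET library had high immediate-early genes, and all but 1 βEedKO library low ones, genotype and that split can barely be told apart in this comparison. No member was called at 8 weeks, against 4.74% of genes, or at 25 weeks, against 8.36%, and DESeq2 called none at either age. Unadjusted p was under 0.05 for none at 8 weeks (25.0% of all genes) and for 5 at 25 weeks (24.3% of all genes), which were Kdr, Egfl7 (1.17 ± 0.43, adjusted p = 0.118), Flt1 (-0.56 ± 0.22, 0.142), Emcn (-0.51 ± 0.21, 0.160) and Esam (0.72 ± 0.32, 0.186). At 25 weeks 4 members lay above every HET library (33.9% of genes) and 3 below (27.9%). The comparisons with WT and with HET share the βEedKO libraries, so neither is a repeat of the other.

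Age in WT islets gave no called gene among the 10, and 0% over all genes. Over all genes 1898 had an unadjusted p under 0.05, and DESeq2 called 143. Of the 10 genes, 4 had an unadjusted p under 0.05, with values from 0.0036 to 0.0484, and DESeq2 called 1 of them. That was Tek, at 6.60, 4.01 and 5.30 CPM at 8 weeks and 16.8, 11.8 and 11.4 CPM at 25 weeks with no overlap (1.33 ± 0.36, edgeR adjusted p = 0.489, DESeq2 adjusted p = 0.0484). Kdr (0.79 ± 0.32), Plvap (0.50 ± 0.21) and Flt1 (0.49 ± 0.22) were the others, each with an edgeR adjusted p of 0.489. At 25 weeks 4 genes, Plvap, Kdr, Esam and Tek, were above every 8-week WT library, as were 7.12% of genes. Among WT libraries, replicates 3 and 4 at 8 weeks were low in immediate-early and high in interferon genes. At 25 weeks only replicate 2 was low in immediate-early genes, and none was high in interferon genes. Age and these library differences are thus partly confounded here. With the replicate number as a block, Kdr, Cdh5, Esam and Tek were called (adjusted p of 0.044, 0.018, 0.035 and 0.016), as were 2956 genes over all, and Cdh5 was the 1 of them lower at 25 weeks. For this comparison the block joined equal numbers across the ages, and the labels name nothing that such libraries share.

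The ligands of these receptors were followed as a fixed list of 8 genes. None was called in βEedKO against WT at 25 or 8 weeks by edgeR, against 6.6% and 0.434% of all genes. At an unadjusted p under 0.05 there were 3 and 1, against 20.3% and 7.87% of all genes. DESeq2 called Vegfa at 25 weeks and Angpt2 at 8 weeks. Against HET, edgeR called Angpt2 higher at both ages and Vegfa lower at 25 weeks. Of all genes, 4.74% were called against HET at 8 weeks and 8.36% at 25 weeks.

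Angpt2 encodes angiopoietin-2, a mostly endothelial antagonist of Tie2 that loosens vessels. It was at 10.8, 12.8 and 14.3 CPM in WT, 8.43, 8.21 and 9.98 CPM in HET and 22.5, 23.9 and 23.2 CPM in βEedKO islets at 8 weeks. At 25 weeks it was at 9.81, 13.8 and 10.2 CPM in WT, 9.15 and 9.68 CPM in HET and 18.9 and 18.2 CPM in βEedKO islets. All 5 knockout libraries were thus above all 11 others, at both ages. Of the 5, only βEedKO replicate 1 at 8 weeks was in the high immediate-early class. Taken comparison by comparison, the knockout libraries all lay above WT for 6.49% of 18828 genes at 8 weeks and 24.6% at 25 weeks. Above HET the shares were 12.7% and 33.9%. The share of genes that met all of these at once was not counted. Against WT the log2 difference was 0.87 ± 0.21 at 8 weeks (edgeR adjusted p = 0.149, 0.0042 to 0.599 over the alternatives) and 0.66 ± 0.23 at 25 weeks (adjusted p = 0.138, 0.022 to 0.406). Against HET it was 1.39 ± 0.19 at 8 weeks (adjusted p = 0.0030) and 0.97 ± 0.23 at 25 weeks (adjusted p = 0.0180). The call at 8 weeks was lost with the replicate block (adjusted p = 0.343). The call at 25 weeks was lost with library size scaling, with no filter, with the block and when either library of either genotype at that age was left out, with adjusted p from 0.069 to 0.205. With the term for immediate-early genes both calls held, at adjusted p of 0.0096 and 0.0448. The start site of Angpt2 lay in the bivalent state rich in H3K4me3.

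Vegfa, the ligand for Kdr and Flt1, was the most abundant of the 8. It was at 303, 405 and 392 CPM in WT, 367 and 517 CPM in HET and 161 and 211 CPM in βEedKO islets at 25 weeks, with the knockout values below all others. The difference was -1.04 ± 0.31 from WT (edgeR adjusted p = 0.0748) and -1.25 ± 0.31 from HET (adjusted p = 0.0242). It passed the threshold against WT by DESeq2 (0.0116), with the controls pooled (0.0245), with all 6 groups fitted together (0.0474) and without βEedKO replicate 1 at 8 weeks (0.0331). In that order these settings called 2049, 2649, 1692 and 1609 genes over all, against 1234 as reported. The call against HET was lost with the immediate-early term (-0.75, adjusted p = 0.0952) and without HET replicate 2 at 25 weeks (-0.99, adjusted p = 0.230), among others. At 8 weeks Vegfa was at 394, 305 and 334 CPM in WT and 459.7, 277 and 255 CPM in βEedKO islets (-0.06 ± 0.27, adjusted p = 0.985). Its start site was in an active state, unlike those of its receptors. Of the 8 β-cell genes followed, which include Ins1 and Mafa, 7 were called lower in the same 2 libraries.

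Vegfb, which binds Flt1 alone of the VEGF receptors, was at 35.8, 24.8 and 26.3 CPM in WT and 21.3 and 10.7 CPM in βEedKO islets at 25 weeks (-0.91 ± 0.38, adjusted p = 0.213). Pgf, a further Flt1 ligand, was at 17.7, 12.7 and 9.98 CPM and at 10.5 and 8.11 CPM (-0.58 ± 0.82, adjusted p = 0.766). Angpt1, the activating Tie2 ligand, was at 0.53 to 3.09 CPM in WT and at 8.22 and 2.95 CPM in the knockout libraries (1.81 ± 1.04, adjusted p = 0.373). Vegfc, Vegfd and Angpt4 stayed at or below 4.36 CPM in every library, too low for a statement on direction.

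**Figure D5:**
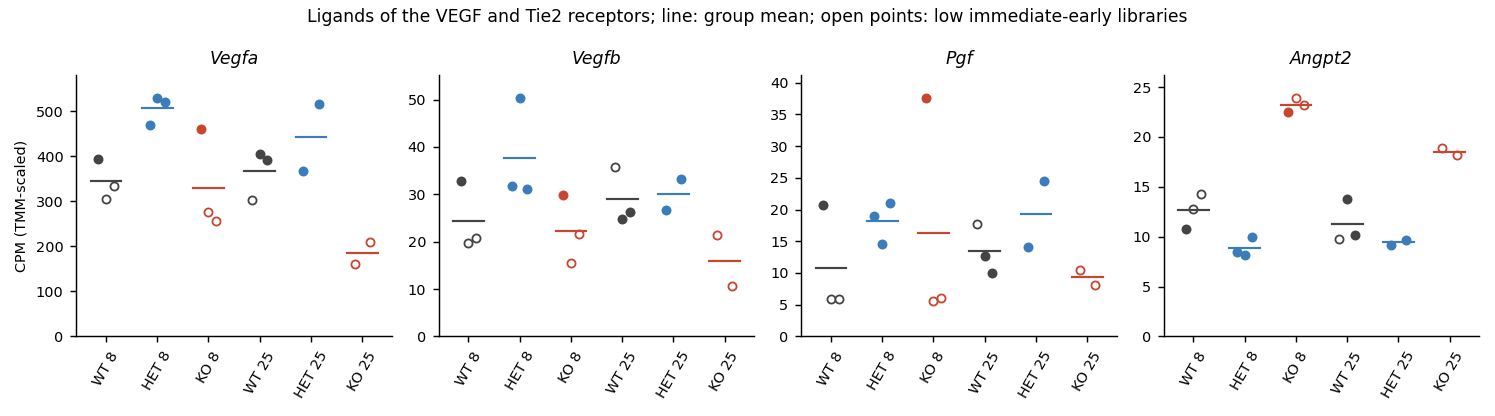
Levels of ligands of the VEGF and Tie2 receptors in CPM scaled by TMM (vertical axes, from 0), by genotype and age in weeks. Points are libraries, lines group means and open points libraries with low immediate-early genes. All 5 βEedKO libraries lie between 18.2 and 23.9 CPM for Angpt2, above the 11 others, and the 2 at 25 weeks lie lowest for Vegfa.

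A wider list of 42 other endothelial genes was counted in the same tests. At 25 weeks the fitted differences of 35 of 42 between βEedKO and WT islets were above 0, with a median log2 difference of 0.48. Of the 42, 1 was called higher and 1 lower, against 6.6% of all genes called, and 9 had an unadjusted p under 0.05, against 20.3%. At 8 weeks the differences of 34 of 42 were above 0 with a median of 0.32, and none was called or had an unadjusted p under 0.05. The summed level of the 42 genes was 620 to 650 CPM in WT and 744 to 837 CPM in βEedKO islets at 25 weeks, with HET islets, at 701 and 750.1 CPM, overlapping the latter.

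Tal1, a transcription factor of blood and endothelial lineages, was the gene called higher. It was at 0.90 to 2.18 CPM in WT and 21.5 and 23.3 CPM in βEedKO islets at 25 weeks (4.02 ± 0.55, edgeR adjusted p = 0.0025), and at 0.52 to 1.95 CPM in the 8-week knockout libraries. Esm1, a secreted proteoglycan of endothelial tip cells that VEGF-A induces, was the gene called lower. It was at 39.6 to 79.4 CPM in WT and 21.5 to 29.1 CPM in βEedKO islets (-1.25 ± 0.30, adjusted p = 0.0343), and at 66.6 to 86.0 CPM in HET islets. The Esm1 call was lost with library size scaling (adjusted p = 0.324) and when WT replicate 3 or βEedKO replicate 5 at 8 weeks, WT replicate 2 or 3 at 25 weeks, or either βEedKO library at 25 weeks was left out (0.051 to 0.239). Against HET at 25 weeks, where 8.36% of all genes were called, 3 genes of the list were. These were Tal1 (4.58 ± 0.64, adjusted p = 0.0011), Esm1 (-1.59 ± 0.28, 0.0042) and the arterial transcription factor Sox17 (2.35 ± 0.57, 0.0237), the last named after its value was seen. Sox17 was at 1.01 to 3.49 CPM in WT, 0.58 to 1.14 CPM in HET and 3.43 to 5.48 CPM in βEedKO islets.

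Start sites of the wider list resembled those of the 10. Bivalent states held 25 and Polycomb-repressed states 12 of the 42, and 1, Ramp2, started in an active state. Tal1, Esm1 and Sox17 all had the bivalent state rich in H3K27me3, the state of Plvap, Cdh5 and Flt1, in which 27.2% of 869 genes tested were called higher in βEedKO islets at 25 weeks. The share was 14.2% for the state of Kdr, 4.31% for that of Esam and Tek, 7.68% for that of Tie1 and 2.54% for that of Egfl7 and Emcn, against 0.443% for the main active start state. The median log2 difference was 2.08 over all tested genes with the state of Plvap, Cdh5 and Flt1, whose own differences were 0.21, 0.65 and -0.33. It was 0.94 for the state of Kdr, 0.64 for that of Esam and Tek and 1.35 for that of Tie1. For the state of Egfl7 and Emcn it was 0.90, and for that of Pecam1 0.78. Of the 10 genes, only Esam and Egfl7 lay above the median of their state. At 8 weeks 2.65% of genes with the state of Plvap, Cdh5 and Flt1 were called higher.

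Other cell types moved with the 25-week comparison, and their part in the results was not tested. Of all genes, 4.58% were called higher and 2.02% lower in it. Fibroblast genes summed to 80.6 to 128 CPM in WT and 234 to 363 CPM in βEedKO islets with 4 of 7 called higher, including Pdgfra (2.79), Dcn (1.89) and Col1a1 (1.84 on the log2 scale). Macrophage and leukocyte genes summed to 107 to 203 and 198 to 505 CPM with 2 of 10 called higher, Cd14 (2.38) and Ptprc (1.90). Duct genes summed to 366 to 457 and 856 to 887 CPM with 3 of 8 called higher, Krt19 (3.62), Spp1 (2.996) and Sox9 (2.98). Pericyte and smooth muscle genes, of cells that wrap capillaries, summed to 142 to 174 and 264 to 288 CPM with none of 10 called. Of 5 lymphatic genes 1 was called lower, Lyve1, at 23.2 to 27.0 CPM in WT and 4.48 to 11.0 CPM in βEedKO islets (-1.77 ± 0.40, adjusted p = 0.0270). None of the acinar, glial, red cell, other endocrine, interferon or immediate-early genes was called. Acinar genes took 2.93% to 16.3% of the unscaled counts in WT, and 26.3% and 1.64% in βEedKO replicates 2 and 3. At 8 weeks no gene of any list was called in βEedKO against WT, against 0.434% of all genes. The fitted differences were nonetheless above 0 for 7 of 7 fibroblast genes (median 1.39) and 10 of 10 macrophage and leukocyte genes (median 1.23), beside 9 of the 10 endothelial genes. They were also above 0 for 10 of 10 pericyte and smooth muscle genes (median 0.44). Of the acinar genes 0 of 10 were above 0 (median -1.53). The median over all genes was 0.004. Unadjusted p was under 0.05 for 5 of the fibroblast and 6 of the macrophage and leukocyte genes, against 7.87% of all genes. The part of these cell types in the endothelial values was not tested.

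Across the 16 libraries, pairs among the 10 genes varied together to different degrees (log2 CPM, 45 pairs, given as a description, since libraries share scaling and cell make-up). Pearson's r was highest for Kdr with Flt1, at 0.894, followed by Pecam1 with Egfl7 at 0.801 and Esam with Tek at 0.788. It was lowest for Kdr with Cdh5, at -0.520, and the median was 0.371. Of 15213 genes ranked by r with the mean of the 10, the most alike outside the list were Nid1 (0.883), Thsd1 (0.879), Car4 (0.872), St6galnac3 (0.866), Prex2 (0.859), Unc45b (0.855), Synm (0.849) and Arhgap29 (0.847). Nid1 encodes the basement membrane protein nidogen-1 and Car4 a carbonic anhydrase held on cell surfaces. Among the 10 themselves Esam (0.837) and Tek (0.820) were the most alike to the mean, and Cdh5 (0.198) and Emcn (0.188) the least.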

How the data were processed

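Whole-islet RNA was sequenced as paired reads of 50 bp, and per the labels and the study's methods the authors aligned them with TopHat2 2.0.13 to GRCm38 and deposited 1 table of counts per gene and library, made with featureCounts (Subread 1.5.0-p1) on a GENCODE annotation. The counting strand is not given in the sources used here. Of 47937 genes, 47224 were matched by Ensembl ID to symbols in a later GENCODE release on GRCm38, and 713 were not. The chromatin states were deposited by the authors as letters over 200 bp bins, from wild-type islets with replicates averaged. Groups came from the labels. Per the study's methods the replicates were biological. The βEedKO libraries of the older age each pooled islets of more animals than the methods give for the other libraries. The effect of this unequal pooling on the spread between libraries was not tested.

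Counts were filtered (filterByExpr), scaled by TMM and tested with edgeR 4.0.16 (quasi-likelihood F test, R 4.3.3), in 1 fit of 4 groups (11 libraries, 18685 genes) for βEedKO against WT, the difference between ages and WT ages, and in 1 fit of 6 groups (16 libraries, 18828 genes) for comparisons with HET. P-values were adjusted by Benjamini-Hochberg over all genes tested and called under 0.05. The standard error is the log2 fold change divided by the root of F. Scripts were tested on simulated data. The genes and lists were chosen with earlier results of these data known. All 10 genes and 8 ligands were named. Of the wider endothelial list, genes called in βEedKO against WT were named (at most 10 of largest change for each age), of other cell types at most the 3 of largest change called at 25 weeks, and the 8 genes outside the list most alike to the mean of the 10 over genes with a mean of at least 1 CPM. Alternatives were scaling, filter, DESeq2 1.42.0, a replicate block, left-out libraries, pooled controls, fitted groups and pseudocounts. Those on immediate-early genes, and all those for ligands, the wider list and single genes in comparisons other than βEedKO against WT, were chosen after seeing the data. The libraries differed from each other by more than sampling noise (chi-square per degree of freedom of 31.0 to 592 between replicates), so none was counted as a duplicate. Intervals here cover the spread between libraries, at depths of 4645393 to 22925359 reads.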

Additional observations from a re-analysis of the deposited data

Results flagged for a closer look

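Emcn, the gene for endomucin, lay on opposite sides of WT in βEedKO islets at the 2 ages. Every βEedKO library lay above every WT library at 8 weeks and below every WT library at 25 weeks, and the knockout effect differed by -0.68 on the log2 scale between 25 and 8 weeks (edgeR quasi-likelihood interaction test, adjusted p = 0.513, 0.257 to 1.00 over the alternatives). The interaction did not pass the threshold after adjustment. Of 18828 genes, 6.49% lay above in this way at 8 weeks and 15.9% below at 25 weeks. The share that did both was not counted. At 8 weeks the lowest βEedKO value was 34.7 CPM and the highest WT value 34.4 CPM, with HET libraries at 29.9 to 43.8 CPM.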

How the results depend on the processing

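With 2 or 3 libraries a group, standard errors of the log2 differences between βEedKO and WT at 25 weeks were 0.19 to 0.48 for the 10 genes, which limits what could be called. Over all genes edgeR and DESeq2 called 1234 and 2049 at 25 weeks, 81 and 378 at 8 weeks, 37 and 333 for the difference between ages, 0 and 143 for WT ages, and 892 and 2253 and 1574 and 2657 against HET at 8 and 25 weeks. The number of the 10 genes called was 0 in every comparison as reported. It became 1 for βEedKO against WT at 25 weeks with DESeq2 (Pecam1) and with WT and HET pooled (Egfl7), 1 for WT ages with DESeq2 (Tek), 1 for βEedKO against HET at 25 weeks with that age alone (Kdr), and 0 to 1 without single libraries against HET at each age. Over all genes 2649 were called with WT and HET pooled, and 2218 against HET with 25 weeks alone. The median difference of the 10 moved to 0.37 (25 weeks, all genes then at 0.265) and 0.43 (8 weeks) with library size scaling, to 0.10 for the difference between ages with pooled controls, to 0.30, 0.16 and 0.15 for HET against WT at 25 weeks with library size, the replicate block and the immediate-early term, and to 0.26 for βEedKO against HET at 25 weeks with the block. Without single libraries these medians ran from -0.040 to 0.40, -0.25 to 0.057, 0.10 to 0.31 and -0.15 to 0.16 for βEedKO against WT at 25 weeks, the difference, HET at 25 weeks and βEedKO against HET at 25 weeks. The cause of these changes was not tested.

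Of the wider list, 2 genes were called at 25 weeks, and 1 with library size scaling, 4 with no filter, 6 with DESeq2, 5 with the block, 5 with pooled controls, 4 with 6 groups, 4 with the immediate-early term and 1 to 4 without single libraries. Among single values given in the report, signs turned as follows. At 25 weeks they were Tie1 with pooled controls (-0.0046), Cdh5 (-0.022) and Pgf (0.065) with the immediate-early term, and Flt1 (0.083), Tek (-0.14) and Vegfc (-0.60) in the low libraries alone. At 8 weeks they were Kdr (0.18), Esm1 (0.13), Vegfa (0.16) and Vegfb (0.092) with library size, Flt1 (-0.059) and Tek (-0.46) with pooled controls, and Pgf (-0.031) and Angpt1 (0.57) in the low libraries alone. For the difference between ages they were Tek with library size (-0.036) and in the low libraries alone (-0.17), Cdh5 with the term (-0.30), and Kdr (0.092), Flt1 (0.051) and Egfl7 (-0.090) in the low libraries alone. Against HET at 25 weeks Cdh5 turned with the term (-0.31). Without single libraries, ranges that crossed 0 at 25 weeks were Tie1 -0.044 to 0.078, Vegfc -0.092 to 0.67, Plvap -0.036 to 0.40 and Tek -0.047 to 0.39. At 8 weeks they were Kdr -0.47 to 0.18, Cdh5 -0.018 to 0.66, Vegfa -0.36 to 0.085, Vegfb -0.38 to 0.12, Angpt1 -1.19 to 0.89, Angpt4 -5.31 to 0.11, Flt1 -0.060 to 0.21, Esm1 -0.15 to 0.086, Tek -0.14 to 0.46 and Pgf -0.88 to 1.44. For the difference they were Tek -0.26 to 0.32, Cdh5 -0.036 to 0.67, Esam -0.0046 to 0.50 and Egfl7 -0.25 to 0.70.

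The labels do not say that equal replicate numbers mark a shared litter or day, and only 2 numbers are shared by WT and βEedKO at each age, so the block was an alternative. For WT ages the block joined equal numbers across the ages, where the labels name nothing shared. In the other comparisons except the difference between ages it was set within each age. Deviations of same-numbered WT and βEedKO libraries correlated at 0.533 and 0.246 at 8 weeks and 0.236 and 0.348 at 25 weeks over genes. With the block none of the 10 was called in βEedKO against WT, where genes called over all went from 1234 to 1027 at 25 weeks and from 81 to 0 at 8 weeks, for the difference between ages from 37 to 2, and against HET from 892 to 1 and from 1574 to 429 at 8 and 25 weeks. For WT ages 4 were called (Kdr, Cdh5, Esam and Tek), as were 2956 genes over all (0 without it). Vegfd at 8 weeks (0.016), Tek for the difference between ages (-0.20) and Tek against HET at 8 weeks (0.073) turned sign. The number of the 10 with a difference above 0 went with the block from 9 to 7 and 9 to 6 for HET against WT at 8 and 25 weeks and from 5 to 7 for βEedKO against HET at each age, and with the immediate-early term from 9 to 8 for HET against WT at 25 weeks and from 5 to 6 for βEedKO against HET at 25 weeks. The block also ended the calls against HET of Angpt2 (adjusted p = 0.343 at 8 and 0.205 at 25 weeks) and, at 25 weeks, of Vegfa (0.061), Esm1 (0.058) and Sox17 (0.073). Other pseudocounts moved relative levels by less than 1 SD in 42 of 42 values.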
